A study of Mus musculus with 2 samples.

Results

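The Mir17-92 and Mir106b-25 clusters are related groups of microRNA genes, and they make up 9 of the 2202 microRNA genes counted in this study of the mouse heart. The 9 genes were chosen by their names in the GENCODE M21 annotation. Mir17-92 holds Mir17, Mir18, Mir19a, Mir20a, Mir19b-1 and Mir92-1, and Mir106b-25 holds Mir106b, Mir93 and Mir25. MicroRNA sequencing was done on hearts of female B6CASTF1/J mice, F1 hybrids of the B6 and CAST strains, at 4 days after birth. RNA below 30 nt was selected, per the labels. The 2 libraries form 1 group, biological replicates 1 and 2, for which the labels name different animals and 1 shared donor entry. No treatment or engineered allele is named in the labels, and other ages, tissues or a male group were not analysed here.

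Each cluster is transcribed as 1 long RNA and cut into hairpins, and each hairpin gives a mature microRNA of about the same length. The seed, bases 2 to 8 of the mature strand, pairs with target messages, so microRNAs with the same seed share most of their predicted targets. Mir17-92 is known as a target of MYC that promotes proliferation in lymphoma, and in mouse it is known to promote the proliferation of heart muscle cells. Mir106b-25 lies inside Mcm7, which encodes a subunit of the helicase that licenses DNA replication. Targets known for the miR-17 seed include the cell cycle inhibitor Cdkn1a, and those of the miR-92 seed include the cell death gene Bcl2l11.

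The 9 genes fall into 4 seed families, shown here by their mature sequences from RefSeq (GRCm38.p6), which held all 9. Capitals mark the seed, and positions below are counted from 1 at the 5′ end. The miR-17 seed is on the strand named 5p of Mir17, Mir20a, Mir106b and Mir93.
miR-17-5p: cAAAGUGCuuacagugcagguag
miR-20a-5p: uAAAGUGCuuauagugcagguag
miR-106b-5p: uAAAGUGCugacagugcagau
miR-93-5p: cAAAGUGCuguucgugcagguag
miR-18a-5p, from Mir18, differs inside the seed.
miR-18a-5p: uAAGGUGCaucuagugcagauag
The miR-19 seed is on the 3p strand of Mir19a and Mir19b-1, and these mature strands differ by the substitution U11C.
miR-19a-3p: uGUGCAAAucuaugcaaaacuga
miR-19b-3p: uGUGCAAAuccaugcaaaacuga
The miR-92 seed is on the 3p strand of Mir92-1 and Mir25.
miR-92a-3p: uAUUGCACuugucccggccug
miR-25-3p: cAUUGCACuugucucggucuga
From miR-17-5p to miR-20a-5p the sequence changed by C1U and C12U, and from miR-92a-3p to miR-25-3p by U1C, C14U and C18U. The deposited counts are per hairpin gene, so the 5p and 3p strands of a hairpin were counted together.

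All microRNA genes together had 6417302 counts in replicate 1 and 5662222 in replicate 2, and levels are given as CPM, counts scaled to this total. All intervals given are 95% intervals that cover counting error only. Multi-mapped reads, 39.6% of all reads in replicate 1 and 43.2% in replicate 2, are in no gene's count, so a microRNA made from identical copies is undercounted. Heart muscle markers were present, with Mir208a, Mir208b and Mir499 leading a list of 7 that summed to 21023 CPM in replicate 1 and 19191 CPM in replicate 2. These 3 differed between the libraries in both directions, with Mir208a at 10883 CPM in replicate 1 and 6019 CPM in replicate 2 and Mir499 at 2653 CPM in replicate 1 and 7487 CPM in replicate 2. The 4 other genes of that list, copies of Mir1a and Mir133a, had between 2 and 190 counts in a library. A list of 6 neuronal genes summed to 3 counts in replicate 1 and 1 count in replicate 2, with 4 of the 6 at 0 in both libraries. The liver marker, Mir122, had 675 counts or 105 CPM in replicate 1 and 488 counts or 86.2 CPM in replicate 2.

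The 9 genes held 2.06% of all counts in replicate 1 (2.05 to 2.07) and 1.59% in replicate 2 (1.58 to 1.60), averaging 1.82% ± 0.330 (SD, n = 2). Of the 9, 7 had at least 10 counts in each library, the limit used here to call a gene detected, and so had 373 of all 2202 genes. The median level of the 9 genes was 1656 CPM, against a median of 0 CPM over all genes. The 7 detected members had a median of 1935 CPM, against 75.2 CPM over all detected genes.

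Mir17-92 lies on chromosome 14 (mm10, plus strand), where its 6 hairpins fall within 836 nt, from 115043671 to 115044506. All 6 overlap an exon of the single annotated transcript of Mir17hg, its long noncoding host gene (115042879 to 115046727). The gaps between neighbouring hairpins were 96, 53, 75, 41 and 35 nt. The cluster summed to 78404 counts in replicate 1 and 54926 in replicate 2.

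Mir17 (ENSMUSG00000065508.1) was the most abundant member, with 41128 counts or 6409 CPM in replicate 1 and 27534 counts or 4863 CPM in replicate 2. It averaged 5636 ± 1093 CPM (SD, n = 2) and ranked 33 among all microRNA genes by mean level. Its share of the cluster's counts was 52.5% in replicate 1 and 50.1% in replicate 2. Directly above it in rank was Mir208b, a microRNA of a myosin heavy chain gene of heart muscle, at 6549 ± 1284 CPM (SD, n = 2).

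Mir92-1 (ENSMUSG00000076062.1), at the other end of the cluster, was the second most abundant of its 6 genes. It had 3392 CPM in replicate 1 and 2386 CPM in replicate 2, averaging 2889 ± 711 (SD, n = 2). Mir20a (ENSMUSG00000065442.1), which carries the same seed as Mir17, had 2042 CPM in replicate 1 and 1828 CPM in replicate 2, averaging 1935 ± 152 (SD, n = 2). The ratio of Mir17 to Mir20a was 3.14 in replicate 1 and 2.66 in replicate 2.

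Mir18 (ENSMUSG00000065403.1), whose mature strand is known to target Ccn2, was the least abundant detected gene of Mir17-92. It had 2372 counts or 369.6 CPM in replicate 1 and 3514 counts or 620.6 CPM in replicate 2, averaging 495 ± 177 CPM (SD, n = 2). It was the only detected member of either cluster that was lower in replicate 1 by CPM. The ratio of Mir17 to Mir18 was 17.3 in replicate 1 (16.6 to 18.1) and 7.84 in replicate 2 (7.56 to 8.12).

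Mir19a (ENSMUSG00000065416.1) and Mir19b-1 (ENSMUSG00000076256.1) were close to the limit of counting, although they are cut from the same transcript as Mir17. Mir19a had 10 counts in replicate 1 and 9 in replicate 2, or 1.56 and 1.59 CPM. Mir19b-1 had 21 counts in replicate 1 and 8 in replicate 2, or 3.27 and 1.41 CPM. The floor of 3 counts corresponds to 0.467 CPM in replicate 1 and 0.530 CPM in replicate 2. Mir17 exceeded Mir19a 4113-fold in replicate 1 (2236 to 8577) and 3059-fold in replicate 2 (1611 to 6691). Mir20a lies between these genes on the transcript, and it exceeded Mir19b-1 624-fold in replicate 1 (408 to 1009) and 1294-fold in replicate 2 (656 to 2997).

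Mir106b-25 lies on chromosome 5 (mm10, minus strand), where its 3 hairpins fall within 498 nt, from 138165321 to 138165818. The hairpins lie in an intron of 2 transcripts of Mcm7 (138164583 to 138172422), and Mir93 and Mir25 also overlap an exon of 1 other Mcm7 transcript. The cluster summed to 53640 counts in replicate 1 and 35159 in replicate 2.

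Mir93 (ENSMUSG00000065527.1), the middle hairpin, led this cluster. It had 40012 counts or 6235 CPM in replicate 1 and 24397 counts or 4309 CPM in replicate 2, averaging 5272 ± 1362 CPM (SD, n = 2). Directly below it in rank was Mir127, an imprinted microRNA gene, at 5225 ± 2133 CPM (SD, n = 2). Mir106b (ENSMUSG00000065514.1), with the same seed, had 1741 CPM in replicate 1 and 1572 CPM in replicate 2, averaging 1656 ± 119 (SD, n = 2). Mir25 (ENSMUSG00000065394.1), the miR-92 family gene of this cluster, had 383 CPM in replicate 1 and 328 CPM in replicate 2, averaging 356 ± 38.6 (SD, n = 2). The ratio of Mir93 to Mir106b was 3.58 in replicate 1 and 2.74 in replicate 2.

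**Figure D1:**
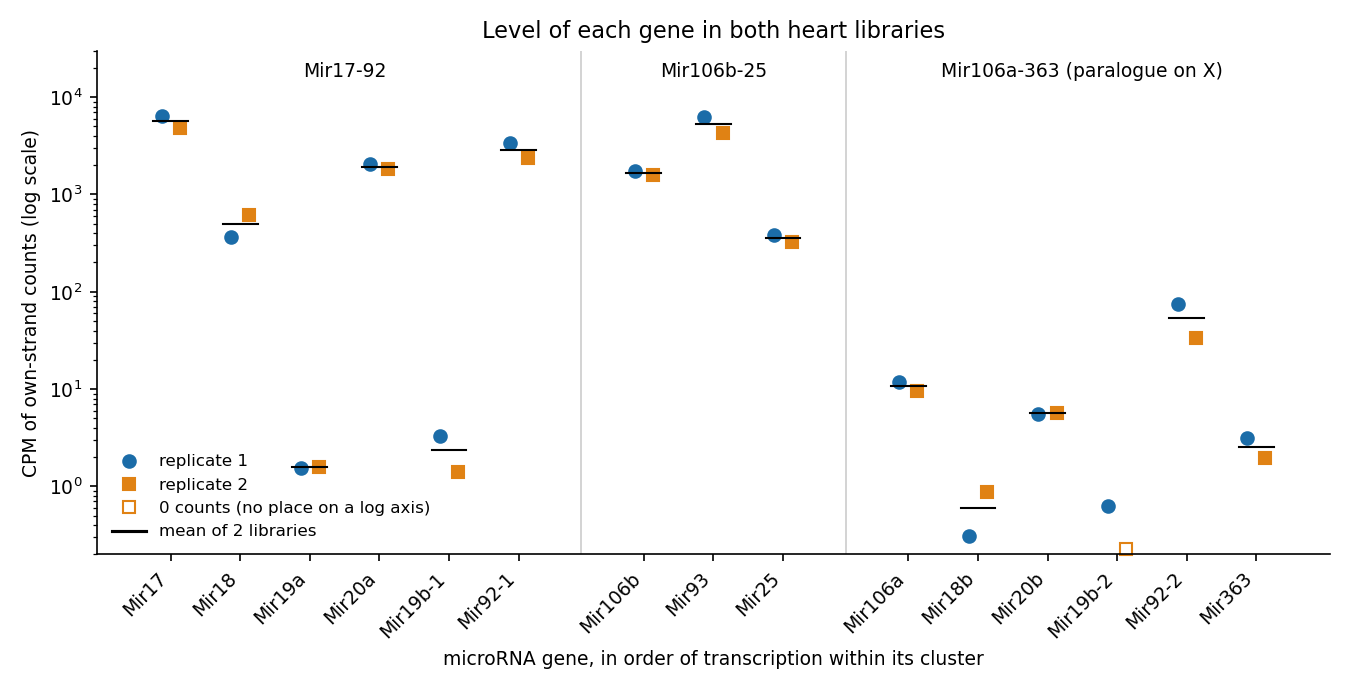
Level of each gene of the 2 clusters and of the related cluster on the X chromosome, in CPM of own-strand counts on a log scale, with circles for replicate 1, squares for replicate 2 and lines for the mean of the 2 libraries. Mir17 and Mir93 lie highest at means of 5636 and 5272 CPM, Mir19a and Mir19b-1 lie at means of 1.57 and 2.34 CPM, and the open square marks the 0 counts of Mir19b-2 in replicate 2.

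By mean level the order was Mir17, Mir93, Mir92-1, Mir20a, Mir106b, Mir18, Mir25, Mir19b-1 and Mir19a. Mir17 was above Mir93 in both libraries, by a factor of 1.03 in replicate 1 and 1.13 in replicate 2, but their ranges over the libraries overlapped. Mir18 and Mir25 changed places between the libraries, and so did Mir19b-1 and Mir19a. The other neighbours in this order kept it in both libraries, with ranges that did not overlap. Order along the transcript did not match order of level, since the first and last hairpins of Mir17-92 were its highest and the middle hairpin of Mir106b-25 was the highest there.

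**Figure D2:**
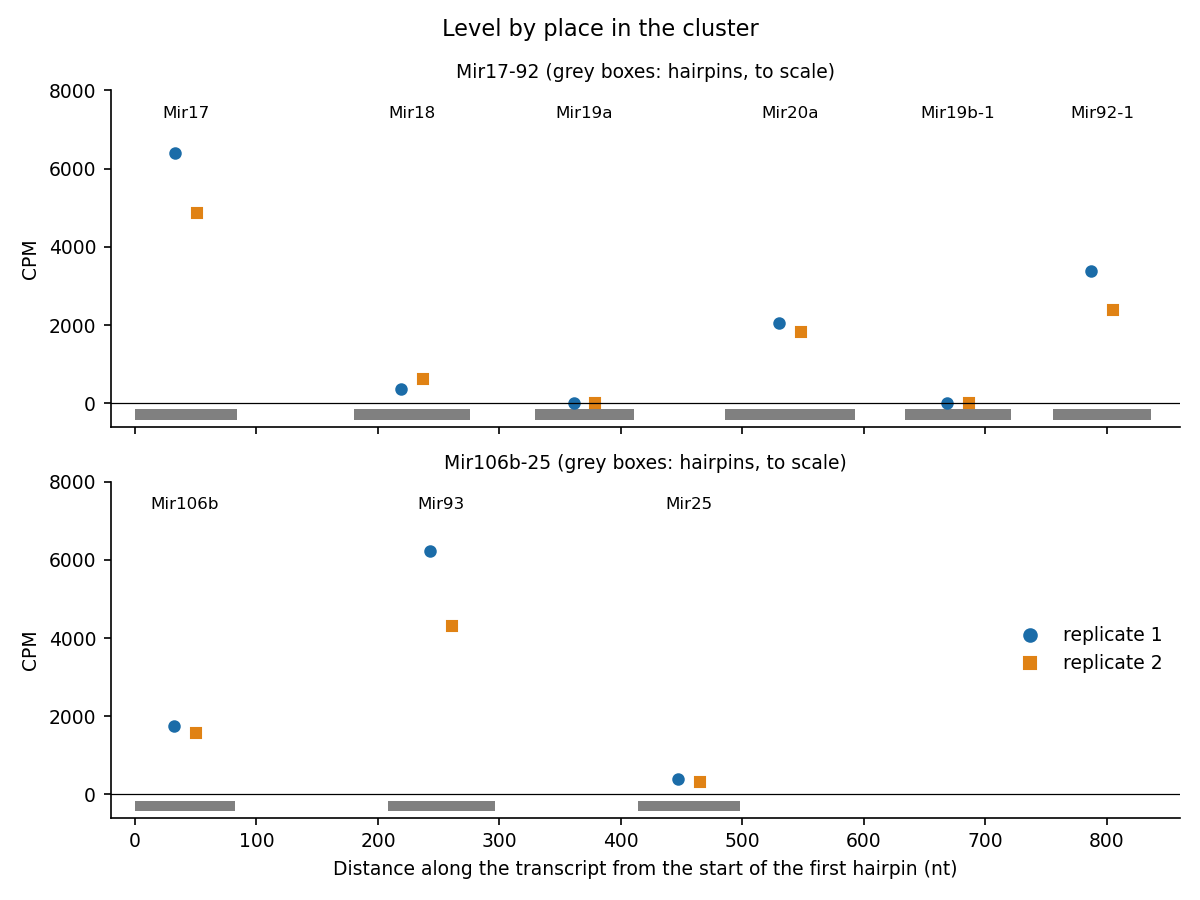
Level in CPM, on a linear scale, of each hairpin against its distance in nt along the transcript from the start of the first hairpin, with grey boxes for the hairpins to scale, circles for replicate 1 and squares for replicate 2. In Mir17-92 the high genes, Mir17, Mir20a and Mir92-1, are separated by the low ones, Mir18, Mir19a and Mir19b-1.

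Of the 9 hairpins, only those of Mir19b-1 and Mir92-1 shared a stretch of 20 nt or more with another annotated microRNA hairpin. In both cases the partner is in the third related cluster, Mir106a-363 on the X chromosome, and the stretch covers the whole mature 3p strand. The 4 hairpins are shown because these stretches cannot be told apart by a read of the mature strand, and capitals mark the shared letters (GENCODE M21, mm10).
Mir19b-1, chr14:115044305-115044391, plus strand: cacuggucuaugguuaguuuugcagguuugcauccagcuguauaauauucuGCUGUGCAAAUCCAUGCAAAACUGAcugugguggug
Mir19b-2, chrX:52741983-52742066, minus strand: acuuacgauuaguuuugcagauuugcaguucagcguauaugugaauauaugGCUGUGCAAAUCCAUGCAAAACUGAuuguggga
Mir92-1, chr14:115044427-115044506, plus strand: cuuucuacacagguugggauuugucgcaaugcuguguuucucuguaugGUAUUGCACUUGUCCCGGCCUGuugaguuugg
Mir92-2, chrX:52741838-52741928, minus strand: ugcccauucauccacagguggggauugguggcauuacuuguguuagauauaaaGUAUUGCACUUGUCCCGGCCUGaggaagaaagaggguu

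The shared stretch was 25 nt for the miR-19b pair and 22 nt for the miR-92a pair. A read of exactly miR-92a-3p therefore matches Mir92-1 and Mir92-2 equally, yet Mir92-1 had 21766 counts in replicate 1 and 13511 in replicate 2. Mir19b-1, with the same kind of copy, had 21 counts in replicate 1 and 8 in replicate 2. Mir19a had 10 and 9 counts, and its mature strand was in no other annotated microRNA hairpin. The mature strand of Mir19a is 1 substitution from that of both miR-19b genes. How many reads of each mature strand were set aside as multi-mapped cannot be read from the gene counts, so the levels of Mir19b-1 and Mir92-1 are uncertain. The aligner is not given, so whether reads of Mir19a were also set aside is not known. The rest of the genome was not searched.

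Between the clusters, Mir17-92 summed to 1.22% of all counts in replicate 1 and 0.970% in replicate 2 (averaging 1.10% ± 0.178, SD, n = 2). Mir106b-25 summed to 0.836% in replicate 1 and 0.621% in replicate 2 (averaging 0.728% ± 0.152, SD, n = 2). The ratio of Mir17-92 to Mir106b-25 was 1.46 in replicate 1 (1.45 to 1.48) and 1.56 in replicate 2 (1.54 to 1.58), averaging 1.51 ± 0.0711 (SD, n = 2). With Mir92-1 and Mir19b-1 left out for their shared stretches, the mean ratio was 1.12. Within the miR-92 family, Mir92-1 exceeded Mir25 8.86-fold in replicate 1 and 7.26-fold in replicate 2. The hairpins of Mir17-92 were 43.7% to 47.5% G and C, and those of Mir106b-25 were 55.7% to 63.1%.

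By seed, the 4 genes with the miR-17 seed held 79.8% of the members' counts in replicate 1 and 79.0% in replicate 2 (averaging 79.4% ± 0.578, SD, n = 2). Mir92-1 and Mir25, with the miR-92 seed, held 18.3% in replicate 1 and 17.1% in replicate 2 (averaging 17.7% ± 0.907, SD, n = 2). Mir18 held 1.80% in replicate 1 and 3.90% in replicate 2 (averaging 2.85% ± 1.49, SD, n = 2). Mir19a and Mir19b-1 together held 0.0235% in replicate 1, from 31 counts, and 0.0189% in replicate 2, from 17 counts. Each share takes all counts of a hairpin, both strands together, so some counted reads may be of the strand without the named seed. Multi-mapped reads are not in these shares. Of these mature strands, miR-92a-3p and miR-19b-3p have exact copies in other annotated hairpins, and none with the miR-17 seed has. The miR-92 and miR-19 shares may therefore be too low and the miR-17 share too high. By these counts, the clusters differed in their makeup. The miR-17 seed held 69.2% of the Mir17-92 counts in replicate 1 and 69.0% in replicate 2, and 95.4% of the Mir106b-25 counts in replicate 1 and 94.7% in replicate 2.

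**Figure D3:**
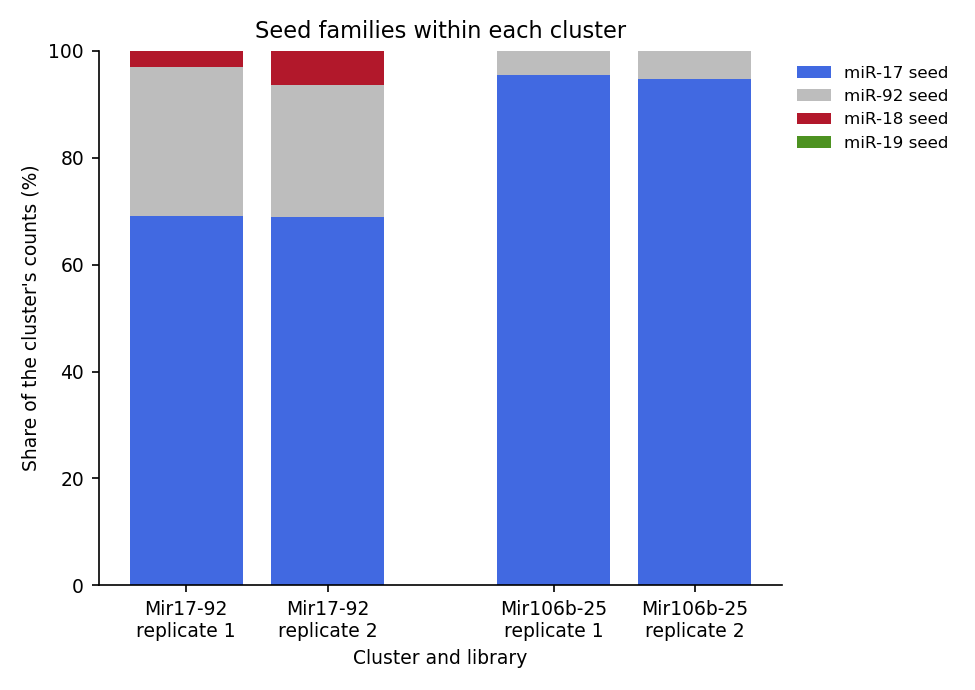
Share of each cluster's counts, in percent, held by each seed family, as stacked bars for Mir17-92 and Mir106b-25 in replicates 1 and 2. The miR-17 seed fills the largest part of every bar, the miR-18 share of Mir17-92 is 3.03% in replicate 1 and 6.40% in replicate 2, and the miR-19 share is too thin to see. Both strands of a hairpin are counted together, and multi-mapped reads are not in the shares.

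Difference between the libraries was measured as the log2 ratio of replicate 1 over replicate 2, with TMM scaling and 0.5 added to each count. With 1 library on each side this ratio has no replicate check and carries no p-value. Of the 7 detected members 1, Mir18, was past 2-fold, and 12.3% of all 373 detected genes were (46 genes). Mir18 had a log2 ratio of -1.04 (-1.11 to -0.96), the lower side of the 2-fold limit. With library totals in place of TMM its log2 ratio was -0.75, so that 0 of the 7 passed 2-fold, against 12.9% of detected genes. The share of members past 2-fold is near that of all detected genes under either scaling, and it is not a result about the clusters.

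The other detected members lay closer together than Mir18, with log2 ratios of 0.24 for Mir93, 0.22 for Mir92-1 and 0.11 for Mir17. The log2 ratios of Mir25, Mir20a and Mir106b were -0.07, -0.13 and -0.15, and with library totals they turned positive, at 0.22, 0.16 and 0.15. The median log2 ratio was -0.07 over the detected members and -0.05 over all detected genes, and with library totals these medians were 0.22 and 0.24. The median size of the log2 ratio, sign left aside, was 0.15 over the detected members and 0.38 over all detected genes with TMM, but 0.40 and 0.43 with library totals.

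**Figure D4:**
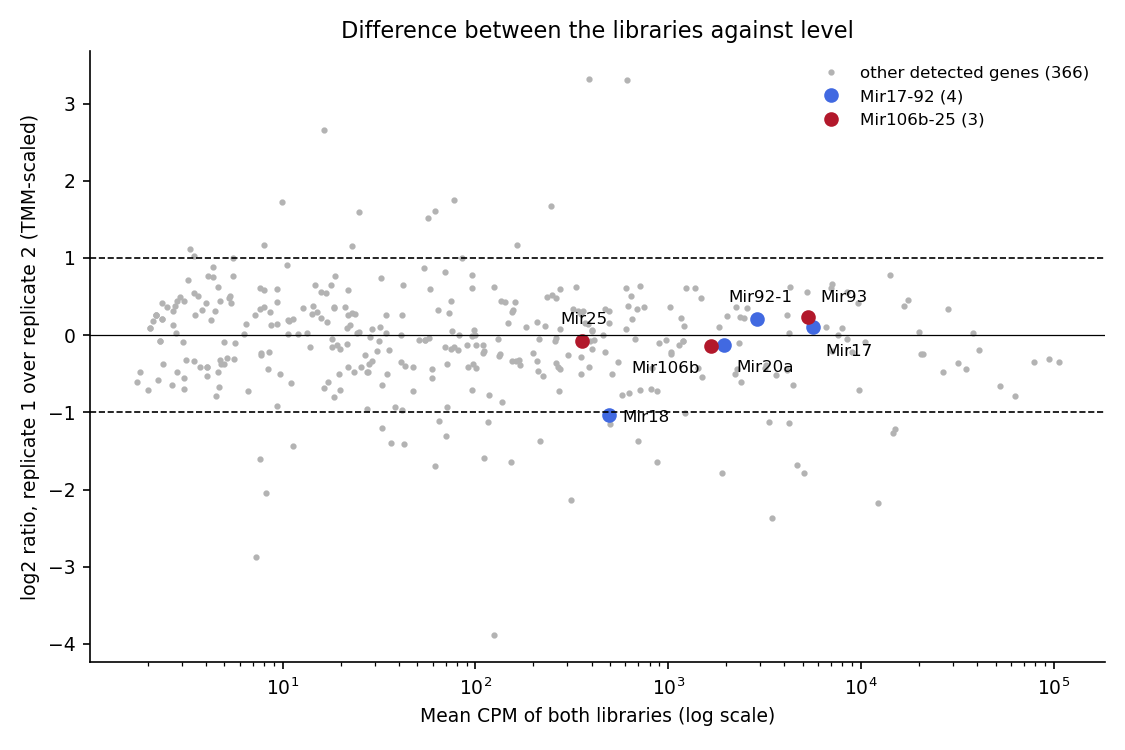
Log2 ratio of replicate 1 over replicate 2 (TMM-scaled) of the 373 detected genes against their mean CPM on a log scale, with blue points for the 4 detected genes of Mir17-92, red points for the 3 of Mir106b-25, grey points for the other 366 and dashed lines at 2-fold. Mir18 lies just past the lower dashed line at -1.04, and the other 6 lie between -0.15 and 0.24.

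Markers of other cell types differed between the libraries beside these values. A list of 3 erythroid genes (Mir451a, Mir144 and Mir486) summed to 788 CPM in replicate 1 and 300 CPM in replicate 2, and 4 leukocyte genes (Mir142, Mir223, Mir150 and Mir155) summed to 1301 CPM in replicate 1 and 872 CPM in replicate 2. The leukocyte genes did not move together, with log2 ratios of 1.16 for Mir142, 0.51 for Mir155, -0.32 for Mir150 and -1.13 for Mir223. Mir126a, the endothelial marker, was at 51829 CPM in replicate 1 and 73011 CPM in replicate 2. The smooth muscle genes, Mir143 and Mir145a, summed to 47055 CPM in replicate 1 and 60331 CPM in replicate 2. The part of these cells in the members' levels was not tested. In whole tissue, fewer cells of a type and less RNA per cell cannot be told apart.

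The third related cluster, Mir106a-363, was far below the other clusters in both libraries. Its 6 genes summed to 617 counts or 96.1 CPM in replicate 1 and 290 counts or 51.2 CPM in replicate 2 (averaging 73.7 ± 31.8 CPM, SD, n = 2). The 9 members exceeded this sum 214-fold in replicate 1 and 311-fold in replicate 2. Mir92-2, which shares miR-92a-3p with Mir92-1, gave most of the X cluster's sum, with 479 counts in replicate 1 and 188 in replicate 2. Mir19b-2 likewise shares miR-19b-3p with Mir19b-1. Reads set aside as multi-mapped are in none of these sums, so the sum of the X cluster and these factors are uncertain.

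Gene by gene, Mir17 exceeded Mir106a 541-fold in replicate 1 and 510-fold in replicate 2. These mature strands differ by the substitution U10A, from miR-17-5p to miR-106a-5p. Mir20a exceeded Mir20b 364-fold in replicate 1 and 323-fold in replicate 2. Mir92-1 exceeded Mir92-2 by a smaller factor, 45.4 in replicate 1 and 71.9 in replicate 2. This factor is uncertain, because a read of exactly miR-92a-3p matches both genes. Mir18b had 2 counts in replicate 1 and 5 in replicate 2, which put Mir18 1186-fold above it in replicate 1 (328 to 9799) and 703-fold in replicate 2 (301 to 2166). Mir19b-2 had 4 counts in replicate 1 and 0 in replicate 2, and Mir363, also of the miR-92 family, had 20 in replicate 1 and 11 in replicate 2.

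Of the counts of all 7 genes with the miR-17 seed in RefSeq, the 4 members held 99.9% in both libraries. Of the 7 genes with the miR-92 seed, Mir92-1 and Mir25 held 96.0% in both libraries. Of the few counts of genes with the miR-19 seed, Mir19a and Mir19b-1 held 31 of 35 in replicate 1 (88.6%, 73.3% to 96.8%) and 17 of 17 in replicate 2 (80.5% to 100%). Reads set aside as multi-mapped are in none of these shares. Those of the miR-92 and miR-19 seeds are uncertain, because miR-92a-3p and miR-19b-3p have exact copies on the X chromosome. Outside the X cluster, the genes with a member's seed and a count were Mir32, at 59.8 ± 4.11 CPM, and Mir92b, at 18.5 ± 5.74 CPM (SD, n = 2), both named for their miR-92 seed alone. Mir367 and Mir6383 had 0 counts in both libraries, below the floor of 3 counts.

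The miR-15/16 family, which in the mouse heart is known for promoting the arrest of heart muscle cell division after birth, was measured as a counterpart. Of 8 listed genes, 7 matched by symbol and 6 of these were detected. The gene that did not match, Mir497a, is a synonym of Mir497 in RefSeq, which had 4850 counts in replicate 1 and 3034 in replicate 2. The 9 members summed to 2.06% of counts in replicate 1 and 1.59% in replicate 2, against 2.98% and 3.40% for this family. The ratio of the members to the family was 0.691 in replicate 1 and 0.467 in replicate 2, and 0.674 and 0.460 with Mir497 added to the family. Shared stretches were not searched for the genes of this family. How many of its reads were set aside as multi-mapped is therefore not known, and its sum and these ratios are uncertain. Mir322 held most of the family's counts, with 159740 in replicate 1 (83.6%) and 160689 in replicate 2 (83.4%). By these counts the family's sum was above that of the members only through Mir322. The other genes of the family together were below the members in both libraries. Of the 6 detected genes as listed, 2 were past 2-fold, Mir16-1 and Mir195a, at log2 ratios of -1.15 and -1.64, against 12.3% of all detected genes. With library totals only Mir195a was, at -1.35, against 12.9%, and Mir16-1 was at -0.85.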

How the data were processed

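MicroRNAs of 2 hearts were sequenced, and samples were grouped by the tissue and replicate number in the labels. The authors deposited unnormalized counts for each microRNA gene, on mm10 with GENCODE M21, per the deposited descriptions. The aligner, counter and trimming were not given in the sources used here. Reads outside gene counts (unmapped, multi-mapped, ambiguous or outside microRNA genes) were 55.6% of reads in replicate 1 and 58.0% in replicate 2, and stayed out of totals. The own-strand column was used. CPM used its total, with no division by length, since mature strands of the members were 21 to 23 nt. Log2 ratios used TMM factors (1.11 and 0.904) computed over genes detected by 10 counts or more in both libraries (edgeR 4.0.16, R 4.3.3), and 0.5 was added to counts. With 1 group, no test between conditions and no p-value was possible. Shares, and ratios within a library, carry exact Clopper-Pearson 95% intervals. The 95% intervals of log2 ratios between the libraries are normal approximations from the counts. Reads carry no stated molecular identifiers, so these cover counting error only. Hairpins were searched for exact shared stretches on both strands. Calculations were made with scipy 1.17.1, numpy 2.4.6 and pandas 2.3.3 in Python 3.11.15. The ratio step was tried on simulated counts with counting noise only, which cannot speak to the spread between real replicates. Named genes are the 9 members, the X cluster, the miR-15/16 list, marker lists and the neighbours in rank of the highest member of each cluster. The counts of the libraries differed by more than sampling noise, so they were not 1 library deposited again. Members and lists were chosen with earlier results of these data known. Alternatives were the strand column, library totals, scaling (DESeq2 1.42.0), count minimums, added counts and shared length.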

Additional observations from a re-analysis of the deposited data

How the results depend on the processing

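Taking the column without strand, the 9 members held 2.28% of counts, Mir17-92 1.37% and Mir106b-25 0.908%, because reads over opposite-strand genes leave the total. With multi-mapped reads added to the total, these shares were 0.936%, 0.562% and 0.374%. Leaving out either library gave 1.59% to 2.06% for the 9 members, 0.970% to 1.22% for Mir17-92 and 0.621% to 0.836% for Mir106b-25. It gave a ratio of the clusters of 1.46 to 1.56, and seed family shares of 79.0% to 79.8% (miR-17), 17.1% to 18.3% (miR-92), 1.80% to 3.90% (miR-18) and 0.0189% to 0.0235% (miR-19). The ratio of the clusters was 1.12 among members with no shared stretch, which drops Mir92-1 and Mir19b-1 by construction. With library totals, and with DESeq2's size factors, 0 members were past 2-fold. Mir18 then had log2 ratios of -0.75 and -0.99. Library totals put the median log2 ratio of all detected genes at 0.24, against -0.05 with TMM. With at least 1 count in each library, 134 of 638 genes were past 2-fold, and with at least 100 counts 34 of 251 were. Of the alternative settings for the other results, 30 moved the value by more than the spread between replicates or the counting interval. The remaining 61 did not, and no ratio past 2-fold changed sign. With either library left out, a level always falls within that spread, so those settings could not count as moved. TMM factors from other gene sets, and the miR-15/16 family with Mir497, were added after seeing the data. No paired analysis was possible because the libraries form 1 group. Mir19a and Mir19b-1 had counts of 8 to 21, which give wide intervals, and the cause of these low counts was not tested.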
